A study of Mus musculus with 6 samples.

Results

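Purine and pyrimidine nucleotides are the building blocks of RNA, DNA, energy carriers and nucleotide sugars, and 37 mouse genes that make, recycle or convert them were followed here. They were taken by name: each of the 37 symbols was looked up among the 55487 genes listed per library, every one was found once, and all 37 passed the filter on low counts. RNA was sequenced from CD8+ T cells of C57BL/6 mice, the T cells that kill infected and tumour cells. The itaconate group was 3 libraries of cells kept with 5 mM itaconate for 48 h, and the control group was 3 libraries of cells kept with NaCl for 48 h. Itaconate is a metabolite that macrophages make from aconitate once they are activated. No genotype, age, stimulus or culture medium is given in the sources used here, and whether replicates came from different mice or cultures is not stated either. The p-values therefore measure no more than library-to-library spread, possibly technical.

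Cells obtain nucleotides along a pair of routes. The de novo route builds the purine ring stepwise on phosphoribosyl pyrophosphate (PRPP) until inosine monophosphate (IMP) is reached, and builds the pyrimidine ring first as orotate; the salvage route adds a sugar phosphate to a free base or a phosphate to a nucleoside. Ribonucleotide reductase and thymidylate synthase then turn part of the pool into deoxynucleotides for DNA. T cells that have been activated and divide are known to raise both routes, and the transcription factor MYC is a known activator of many of the genes.

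Expected counts summed to between 18280217 and 23609543 in the itaconate libraries and between 20469874 and 31643408 in the control libraries. The markers of CD8 T cells were present: Cd8a stood at 646, 630 and 659 CPM (read counts scaled to library size with edgeR's TMM factors) in itaconate libraries and at 526, 472 and 493 CPM in control libraries. Of 10 T and CD8 cell markers 2 rose (Cd8a and Thy1) and 8 did not pass. Beside this and the marker counts that follow, 6.68% of all genes tested rose and 5.36% fell. Of 4 markers of other T cells, Foxp3, the factor of regulatory T cells, rose, with 15.04, 10.99 and 11.2 CPM in itaconate libraries and 2.60, 1.55 and 1.46 CPM in control libraries, and 3 did not pass. The macrophage markers Csf1r and Adgre1 were at most 0.247 CPM in all 6 libraries. The tested macrophage and monocyte markers, Lyz2 at 0.111 to 2.02 CPM and Cd68 at 0.870 to 2.11 CPM over the 6 libraries, did not pass. The summed level of the 10 macrophage and monocyte markers was 3.48 to 4.23 TPM (the authors' transcript abundance, scaled by length and library) in itaconate libraries. It was 1.82 to 2.88 TPM in control libraries. The 6 dendritic cell markers summed to 0.82 to 1.37 TPM in itaconate and 0.96 to 1.49 TPM in control libraries, with Siglech at 0. The 8 erythroid and granulocyte markers summed to 11.4 to 19.8 TPM in itaconate and 2.09 to 10.6 TPM in control libraries, with Ly6g at 0. They differed by library: Mpo had 0, 0 and 9.395 CPM in itaconate and 0, 1.788 and 0 CPM in control libraries. Hba-a1 had 1.435, 2.386 and 0 CPM in itaconate and 0.3712, 0.5799 and 0.508 CPM in control libraries. The 8 B cell markers summed to 249 to 290 TPM in itaconate and 251 to 276 TPM in control libraries, nearly all of it Ighm, which averaged 294 CPM in itaconate and 269.7 CPM in control libraries, and the 7 tested did not pass. Of the 5 genes listed for NK cells Eomes alone was tested, and it rose. It had 123, 110 and 137 CPM in itaconate and 105, 96.3 and 108 CPM in control libraries. Ncr1, Klrb1c, Klra8 and Klra4 were at most 0.601 CPM in every library. They were too low to be tested, so they cannot show whether other NK cell genes rose with Eomes. The part of these other markers in the results below was not tested.

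Most of the nucleotide genes differed little between the groups. By edgeR's quasi-likelihood test, adjusted after Benjamini and Hochberg over 12350 genes, 3 of the 37 changed at an adjusted p under 0.05, which is 8.11% of them, against 12% of all genes tested. Gmps, which makes GMP, and Samhd1, which destroys deoxynucleotides, were lower with itaconate (2 genes, against 5.36% of all genes), and Uckl1, a kinase-like protein of uridine and cytidine salvage, was higher (1 gene, against 6.68%). The other 34 did not pass. The median log2 fold change of the 37 was -0.04, beside 0.01 over all genes tested, and the median size of the change, whatever its direction, was 0.06 beside 0.13. In bulk RNA a lower level can come from fewer cells that express a gene or from less RNA per cell, and these cannot be told apart.

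The data limited the size of most of the differences closely. Standard errors of the log2 fold change ran from 0.044 to 0.107 over the 37 genes, with a median of 0.050, beside 0.090 over all genes tested. For 36 of the 37 the unadjusted 95% interval lay wholly within 1.3-fold in either direction (97.3%, against 54.0% of all genes tested), a limit chosen after the values were seen. The exception was Uckl1. Of the genes that did not pass, Rrm2b had the lowest lower bound, a fold of 0.776. The genes were well expressed: 35 of 37 stood above the median of tested genes in TPM, and 18 stood in the top 10%. The values for all genes, which include many of lower level, are therefore not like for like. The part of expression level in the narrow intervals and in the small median change was not tested.

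**Figure D1:**
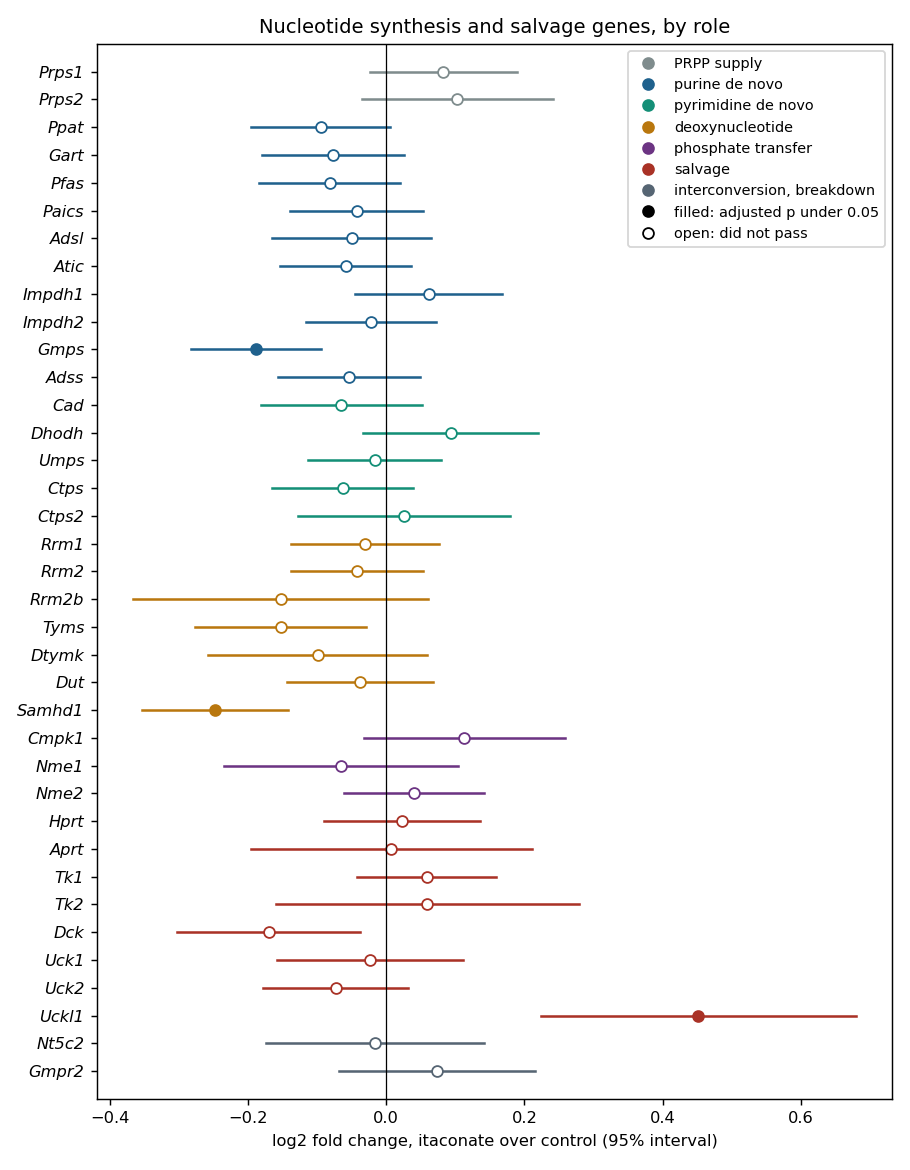
Log2 fold change of itaconate over control for the 37 genes (points) with the 95% interval (lines), coloured by role, filled where the edgeR adjusted p was under 0.05. Gmps and Samhd1 lie left of zero and Uckl1 right of it; most of the other intervals cross zero and stay narrow.

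The groups' CPM did not overlap for 9 of the 37 genes (24.3%, against 31.2% of all genes tested). Of these, 6 were lower with itaconate (against 14.4%) and 3 were higher (against 16.8%). Fold changes were below zero for 24 of 37 genes (64.9%, against 48.6%). By role, fold changes were below zero for 12 of 15 de novo genes, 7 of 7 deoxynucleotide genes and 3 of 8 salvage genes. The salvage count depended on the scale and on single libraries. With limma on log2(TPM + 1), 13 of 15 de novo, 7 of 7 deoxynucleotide and 6 of 8 salvage genes were below zero, against 62% of all genes. In edgeR, leaving out itaconate replicate 2, itaconate replicate 3 or control replicate 1 gave 5 of 8 salvage genes below zero. Over the 14 alternatives, de novo genes ran from 11 to 13 of 15 and deoxynucleotide genes from 6 to 7 of 7, against 48.7% to 62.1% of all genes. These are counts of small differences and were not tested as groups.

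The scale mattered for the whole set. On TPM, 17 of 37 genes lay lower with itaconate without overlap and the other 20 overlapped (against 17.6% of all genes tested lower and 8.83% higher), although the calls by limma on log2(TPM + 1) held none of the 37, with 14 lower and 0 higher at an unadjusted p under 0.05 (against 13.8% of all genes lower and 6.78% higher). Gart, Paics, Atic, Impdh2, Umps, Ctps, Rrm2, Dtymk, Dut, Nme2, Uck1 and Uck2 lay lower on TPM without overlap although their CPM overlapped. The median log2 difference of all genes was itself -0.05 on the log2(TPM + 1) scale, beside -0.10 for the 37 genes. Summed over the 37 genes, the level was 5787, 5520 and 5654 TPM in itaconate libraries and 6075, 6075 and 6051 TPM in control libraries. The itaconate libraries thus lay below the control libraries in the sum per length, while the mean log2 CPM of the same genes, relative to the control mean, was -0.043, -0.022 and 0.005 in itaconate libraries and -0.015, -0.005 and 0.020 in control libraries, which overlap.

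PRPP synthetases make the activated sugar that both routes consume. Prps1 stood at 157, 156 and 161 CPM in itaconate libraries and at 144, 147 and 157 CPM in control libraries (log2 fold change 0.08 ± 0.049, SE; adjusted p 0.316 by edgeR). The groups overlapped. Its paralog Prps2 was at 0.10 ± 0.064 (edgeR adjusted p 0.34) and was the lesser in level, at 39.0 ± 2.3 TPM in itaconate and 36.6 ± 4.4 TPM in control libraries (SD, n = 3), against 129 ± 11 and 133 ± 9.4 TPM for Prps1.

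The de novo purine route starts with Ppat, the amidotransferase that commits PRPP to the purine ring. Ppat had 202, 194 and 210.0 CPM in itaconate libraries and 218, 219 and 210.1 CPM in control libraries. The highest itaconate library and the lowest control library were nearly equal, and the difference did not pass (-0.09 ± 0.047, edgeR adjusted p 0.218). The later enzymes on the way to IMP lay on the same side: log2 fold changes were -0.08 for Gart, a protein with 3 activities of the pathway, -0.08 for Pfas, the formylglycinamide ribonucleotide amidotransferase, -0.04 for Paics, which carboxylates and then joins aspartate, -0.05 for Adsl, the lyase that releases fumarate, and -0.06 for Atic, which closes the ring. Adjusted p-values of the 6 enzymes ran from 0.218 to 0.613. Adsl lay above zero, at 0.004, without itaconate replicate 2, and the other 5 stayed below zero in all 14 alternative analyses.

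Among the libraries, itaconate replicate 2 was the lowest for the 6 enzymes to IMP. Their mean log2 CPM relative to the control mean was -0.051, -0.129 and -0.025 in itaconate libraries and 0.015, 0.001 and -0.016 in control libraries. The groups did not overlap, but itaconate replicate 3 and control replicate 3 were close. Gart, for example, had 497, 462 and 510.3 CPM in itaconate libraries and 507, 521 and 523 CPM in control libraries, and Adsl had 224, 198 and 222 CPM in itaconate and 224, 228 and 215 CPM in control libraries.

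After IMP the route splits. Impdh1 and Impdh2 oxidise IMP toward GMP, Gmps finishes GMP by adding an amino group from glutamine, and Adss starts the branch to AMP. Gmps stood at 194, 191 and 196 CPM in itaconate libraries and at 218, 218 and 226 CPM in control libraries. Every itaconate library was below every control library, and the gene fell by 0.19 ± 0.044 on the log2 scale (edgeR adjusted p 0.0126), a fold of 0.877 with a 95% interval from 0.822 to 0.936. Per length it stood at 29.5 ± 1.0 TPM in itaconate and 35.0 ± 0.18 TPM in control libraries (SD, n = 3). Its adjusted p was over the threshold without itaconate replicate 2 (log2 fold change -0.18, adjusted p 0.0517), with effective transcript length in the model (-0.19, adjusted p 0.0519) and with limma on TPM (-0.25 to -0.24, adjusted p 0.0833 to 0.176), at a size close to or above that of the call.

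The enzymes on either side of Gmps did not pass. Impdh2, the IMP dehydrogenase that dividing lymphocytes are known to use, had 551, 559 and 563 CPM in itaconate libraries and 549, 571 and 579 CPM in control libraries (-0.02 ± 0.044, edgeR adjusted p 0.803). Its 95% interval, a fold of 0.923 to 1.05, leaves room for small differences only on this scale. In TPM Impdh2 was lower without overlap, at 438, 416 and 424 in itaconate and 447, 459 and 449 in control libraries (adjusted p 0.314 by limma on log2(TPM + 1)). Impdh1 was at 0.06 ± 0.050 (edgeR adjusted p 0.476), above zero in all 14 alternatives, and Adss was at -0.05 ± 0.048 (edgeR adjusted p 0.532). Impdh2 exceeded Impdh1 by 4.37, 4.25 and 4.42 times in TPM in itaconate libraries and by 4.72, 4.55 and 4.64 times in control libraries. This ratio did not overlap between the groups, one of 2 such ratios among 10 gene pairs compared; the other was Ctps over Ctps2.

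The de novo pyrimidine genes gave no call. Cad, whose protein carries out the first steps from glutamine, had 492, 430 and 458 CPM in itaconate libraries and 496, 488 and 459.5 CPM in control libraries. The groups overlapped (-0.06 ± 0.054, edgeR adjusted p 0.494). Dhodh, the mitochondrial enzyme that makes orotate and hands electrons to ubiquinone, had 48.9, 49.3 and 51.7 CPM in itaconate libraries and 47.9, 45.5 and 47.1 CPM in control libraries. Its groups did not overlap, yet the difference did not pass (0.09 ± 0.059, edgeR adjusted p 0.348), and on TPM it overlapped, with 37.9 ± 4.1 TPM in itaconate and 38.7 ± 4.7 TPM in control libraries (SD, n = 3). Umps, which turns orotate into UMP, was at -0.02 ± 0.045, and the CTP synthetases were at -0.06 ± 0.048 (Ctps) and 0.03 ± 0.072 (Ctps2), with edgeR adjusted p-values from 0.442 to 0.862. Ctps over Ctps2 was 2.57, 2.63 and 2.66 in itaconate and 3.31, 2.73 and 2.70 in control libraries, and control replicate 1 stood apart from the rest.

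**Figure D2:**
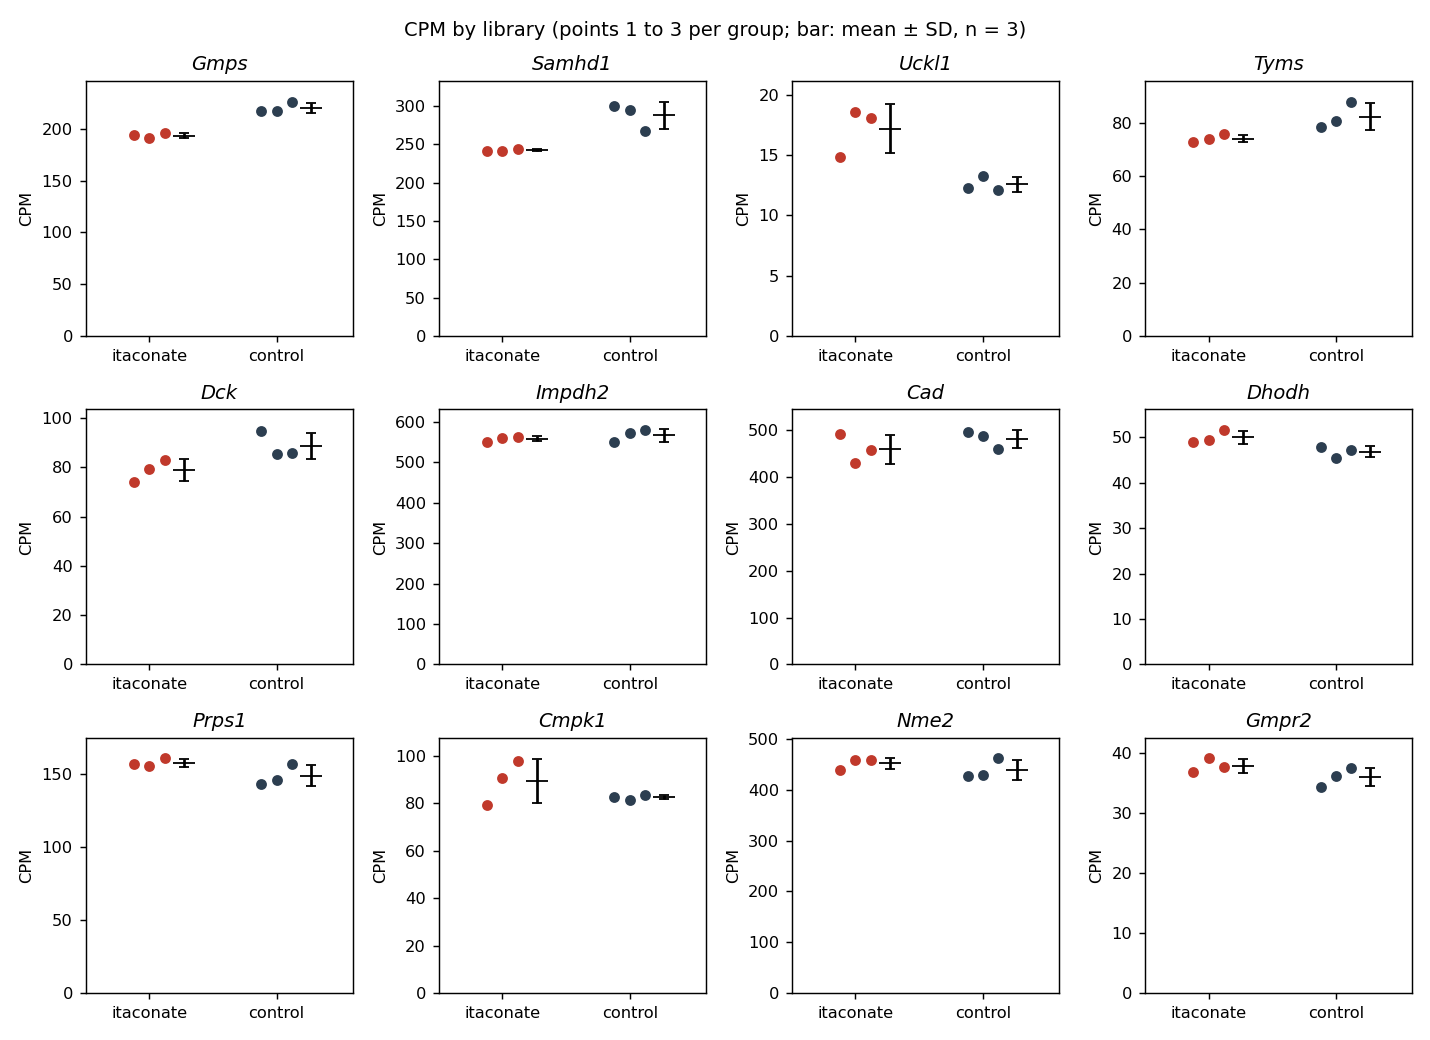
CPM of 12 of the genes in each library (points, libraries 1 to 3 per group) with the mean and SD (black bar, n = 3), itaconate left and control right. Gmps and Samhd1 are lower and Uckl1 higher in every itaconate library than in any control library; Cad, Impdh2, Nme2 and Gmpr2 overlap.

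Deoxynucleotide genes held the largest decrease among the 37. Samhd1 encodes a triphosphohydrolase that breaks deoxynucleoside triphosphates down and is also known as an interferon-inducible gene. It stood at 241, 241 and 244 CPM in itaconate libraries and at 299.5, 295 and 268 CPM in control libraries. The itaconate libraries were close to each other and all below the control libraries, and the gene fell by 0.25 ± 0.049 on the log2 scale (edgeR adjusted p 0.00515), with a 95% interval of the fold from 0.782 to 0.906. The call held without any 1 library (adjusted p 0.00132 to 0.0404). It was lost with effective length in the model, where the log2 fold change was -0.15 (adjusted p 0.193), and with limma on TPM, where it was -0.206 to -0.205 (adjusted p 0.166 to 0.344).

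The enzymes that make deoxynucleotides did not pass. Rrm1 and Rrm2, the large and small subunits of ribonucleotide reductase, were at -0.03 ± 0.050 and -0.04 ± 0.045 (edgeR adjusted p 0.751 and 0.607). Rrm1 lay above zero in 2 of 14 alternatives. Rrm2b, the small subunit induced by p53, was low, at 12.9, 11.6 and 13.2 CPM in itaconate libraries and 14.5, 13.4 and 14.1 CPM in control libraries (-0.15 ± 0.10, edgeR adjusted p 0.364). Its groups did not overlap in CPM but did in TPM. Rrm2 exceeded Rrm2b by 60.2, 73.3 and 65.2 times in itaconate and by 59.0, 46.5 and 62.5 times in control libraries, in TPM.

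Tyms, the thymidylate synthase, had 72.8, 73.8 and 75.7 CPM in itaconate libraries and 78.3, 80.9 and 87.8 CPM in control libraries. The groups did not overlap, and the difference did not pass (-0.15 ± 0.058, edgeR adjusted p 0.104). Dtymk, which phosphorylates the product, was at -0.10 ± 0.073 (edgeR adjusted p 0.431), and Dut, which removes dUTP, at -0.04 ± 0.049 (edgeR adjusted p 0.685). Of 35 genes of S phase, the stage at which deoxynucleotides are used, 3 fell and 32 did not pass, with a median of -0.05. Those that fell were Mcm3 and Mcm4, subunits of the replicative helicase, and Chaf1a, which assembles chromatin. Of all genes tested, 5.36% fell. The summed level of the 35 genes was 4809, 4513 and 4685 TPM in itaconate and 5216, 5089 and 4920 TPM in control libraries. The sums did not overlap, on a scale whose median over all genes was lower too. The part of the S phase genes in the deoxynucleotide results was not tested. Pcna, the sliding clamp, was at -0.10 ± 0.044 (edgeR adjusted p 0.181) and Mki67, a marker of cycling cells, at -0.05 ± 0.11 (edgeR adjusted p 0.831).

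Kinases that pass phosphate between nucleotides did not pass the test. Cmpk1, which phosphorylates UMP and CMP, had 79.5, 90.6 and 98.0 CPM in itaconate libraries and 82.7, 81.6 and 83.5 CPM in control libraries (0.11 ± 0.068, edgeR adjusted p 0.318). The itaconate libraries spread on both sides of the control libraries. Nme2, a nucleoside diphosphate kinase, had 439.6, 458 and 458 CPM in itaconate libraries and 427, 429 and 462.5 CPM in control libraries (0.04 ± 0.047, edgeR adjusted p 0.652). Per length Nme2 was the most abundant of the 37, at 766 ± 4.9 TPM in itaconate and 785 ± 20 TPM in control libraries (SD, n = 3). Nme1 was at -0.07 ± 0.076 (edgeR adjusted p 0.65). Both share exon sequence (418 bases in Nme1, 573 bases in Nme2) with the read-through gene Gm20390, at 134 CPM in itaconate and 129 CPM in control libraries, so their levels depend on how the authors' counting divided these reads.

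Among the salvage genes, Uckl1 had the largest increase of all 37. Uckl1 encodes a protein related to uridine-cytidine kinases. It stood at 14.9, 18.6 and 18.1 CPM in itaconate libraries and at 12.3, 13.3 and 12.1 CPM in control libraries. Every itaconate library was above every control library, and the gene rose by 0.45 ± 0.11 on the log2 scale (edgeR adjusted p 0.0135), with a 95% interval of the fold from 1.17 to 1.603. The call was lost without itaconate replicate 2 (log2 fold change 0.39, adjusted p 0.0641) or itaconate replicate 3 (0.41, adjusted p 0.0667), at a fold change close to that with all libraries. Per length the groups overlapped: 15.3, 19.8 and 17.4 TPM in itaconate and 15.2, 19.1 and 13.6 TPM in control libraries, a log2 difference of 0.13 with limma on log2(TPM + 1) (adjusted p 0.619).

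The estimated transcript length of Uckl1 differed along with its counts. It was 1436, 1328 and 1471 bases in itaconate libraries and 1286, 1114 and 1314 bases in control libraries, without overlap, and with effective length in the model the log2 fold change was 0.21 (adjusted p 0.489). Samhd1 was shorter on average, at 2498, 2401 and 2569 bases in itaconate and 2602, 2722 and 2651 bases in control libraries. Of the 37 genes, 4 did not overlap in length (Gart, Tyms, Samhd1 and Uckl1; 10.8%, against 8.48% of all genes tested), each with a two-sided exact permutation p of 0.1, the smallest that 3 against 3 libraries can give. Gmps had the same length, 8105 bases, in both groups' means. Uckl1 shares 67 exon bases with Zfp512b on the same strand, at 48.3 CPM in itaconate and 43.4 CPM in control libraries, and 459 bases with Uckl1os on the other strand, at 0.286 CPM in itaconate and 0.169 CPM in control libraries.

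**Figure D3:**
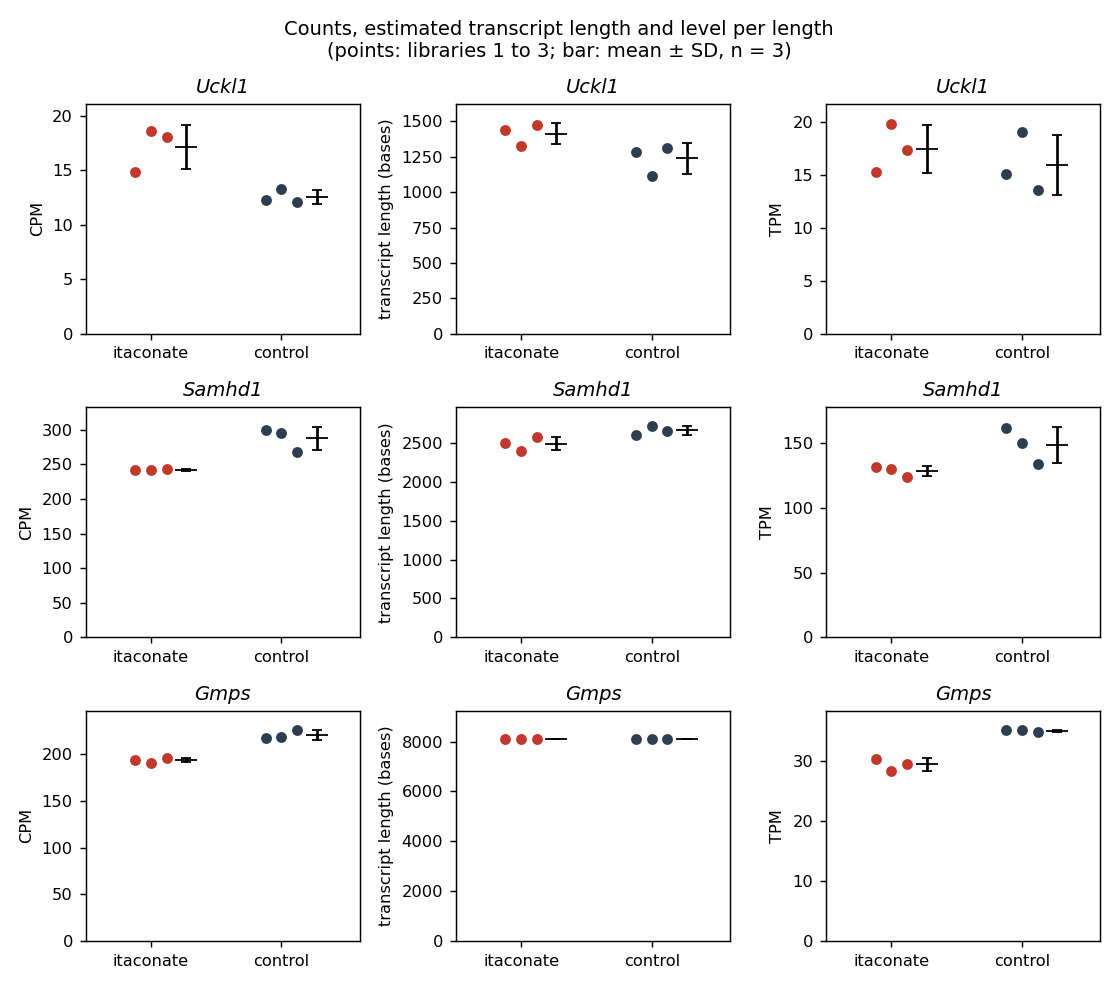
CPM (left), estimated transcript length in bases (middle) and TPM (right) of Uckl1, Samhd1 and Gmps in each library (points), with mean and SD (black bar, n = 3), itaconate left and control right in each panel. Uckl1 is higher in CPM and longer with itaconate while its TPM overlaps; Gmps keeps 1 length and is lower on both scales.

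The other salvage genes did not pass. Dck, the deoxycytidine kinase that lymphocytes rely on, came nearest, with 74.2, 79.2 and 83.1 CPM in itaconate libraries and 94.8, 85.3 and 86.1 CPM in control libraries. Its groups did not overlap (-0.17 ± 0.062, edgeR adjusted p 0.0879). Tk1, the thymidine kinase of S phase, had 124, 127 and 127 CPM in itaconate libraries and 119, 122 and 122 CPM in control libraries, without overlap in CPM, at 0.06 ± 0.047 (edgeR adjusted p 0.469). Hprt and Aprt, which salvage hypoxanthine, guanine and adenine, were at 0.02 ± 0.053 and 0.01 ± 0.089 (edgeR adjusted p 0.83 and 0.976). Tk2, the mitochondrial thymidine kinase, was at 0.06 ± 0.10, and Uck1 and Uck2, which phosphorylate uridine and cytidine, were at -0.02 ± 0.063 and -0.07 ± 0.049. Of Tk2, Uck1 and Uck2, Uck2 had the smallest edgeR adjusted p, 0.378.

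A pair of genes that convert or break down nucleotides stood in the list. Gmpr2, which turns GMP back into IMP, had 36.9, 39.2 and 37.8 CPM in itaconate libraries and 34.4, 36.2 and 37.5 CPM in control libraries (0.07 ± 0.066, edgeR adjusted p 0.529). It shares 1540 exon bases with Tinf2 on the other strand, at 49.6 CPM in itaconate and 44.1 CPM in control libraries, and since the strand setting is not given its value is uncertain. Nt5c2, a cytosolic nucleotidase that prefers IMP and GMP, was at -0.02 ± 0.074 (edgeR adjusted p 0.925).

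The balance between the routes did not separate the groups. Summed TPM of the 15 de novo genes over that of the 8 salvage genes was 1.90, 1.67 and 1.78 in itaconate libraries and 1.88, 1.82 and 1.74 in control libraries. Deoxynucleotide over salvage genes gave 1.31, 1.19 and 1.20 in itaconate and 1.301, 1.23 and 1.27 in control libraries. Both ratios overlapped. Within the sums, purine de novo genes gave 1630, 1500.0 and 1597 TPM in itaconate and 1727, 1734 and 1658 TPM in control libraries, and salvage genes gave 1031, 1080.0 and 1078 TPM in itaconate and 1098, 1144 and 1138 TPM in control libraries. Both sums were lower in every itaconate library, on a scale whose median over all genes was lower too.

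**Figure D4:**
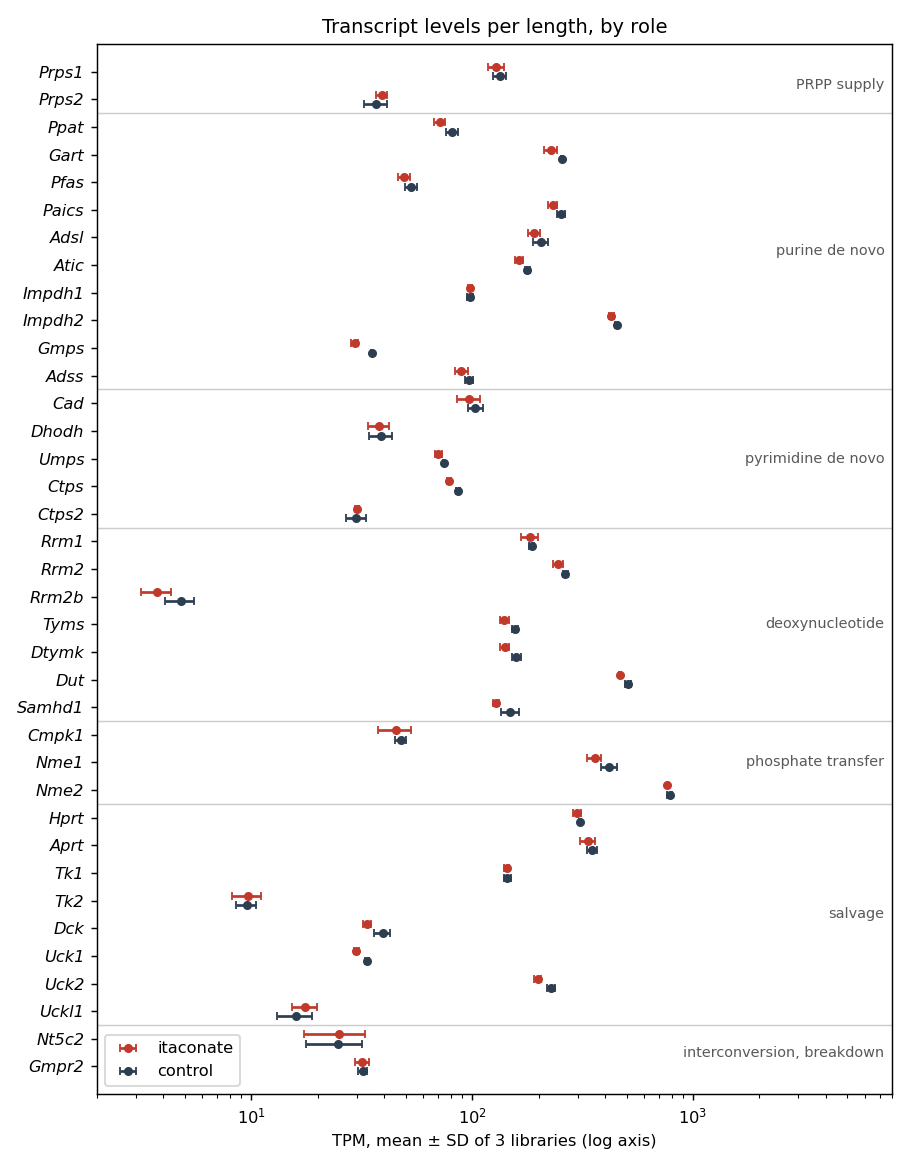
TPM of the 37 genes on a log axis, mean and SD of 3 itaconate libraries (red, upper) and 3 control libraries (dark, lower), ordered by role. Levels span Rrm2b near 4 TPM to Nme2 near 775 TPM, and the bars of each gene's groups lie close together on this scale.

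Levels per length differed far more between genes than between groups. Along the purine route, mean TPM over all 6 libraries ran from 32.3 for Gmps and 51.0 for Pfas to 439 for Impdh2, and along the pyrimidine route from 30.0 for Ctps2 to 100.1 for Cad. Dut, at 467 ± 4.1 TPM in itaconate and 506 ± 15 TPM in control libraries (SD, n = 3), and Impdh2 led their roles. The genes with the lowest levels were Rrm2b (4.27 TPM over all 6 libraries), Tk2 (9.58) and Uckl1 (16.7).

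Promoters of 34 of the 37 genes were in the RefSeq table of mouse GRCm38.p6, which holds 250 bases before and 50 bases after each start; Pfas, Dhodh and Rrm2b were not in it. They were searched for CACGTG, the E-box letters that MYC and related factors are known to bind, which read the same on both strands. It stood in 8 of 48 windows (16.7%, against 7.15% of all 32851 windows) and in 7 of 34 genes (20.6%, against 8.09% of all genes in the table). The windows of the 34 genes were also richer in CpG (median 16 in the 250 bases before the start, against 6 in all windows) and in G and C (59.8%, against 52.4%), and the E-box letters hold a CpG, so the shares are not like for like; the part of base composition was not tested. The 8 sites follow with 12 bases on either side, 5′ to 3′ on the gene's strand, with the E-box in capitals, because MYC is the textbook regulator of these genes.
Paics: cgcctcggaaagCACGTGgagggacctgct
Atic: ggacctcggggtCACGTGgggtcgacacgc
Impdh2: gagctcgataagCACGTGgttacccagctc
Tyms: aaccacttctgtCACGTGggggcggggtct
Dtymk: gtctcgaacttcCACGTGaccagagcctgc
Nme1, first start: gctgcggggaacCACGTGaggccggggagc
Nme1, second start: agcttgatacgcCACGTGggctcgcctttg
Nt5c2, an alternative start: cactttgcttccCACGTGggtactgattaa

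The printed windows lie at chr5:76951087-76951116 (Paics, plus strand), chr1:71557137-71557166 (Atic, plus), chr9:108560314-108560343 (Impdh2, plus), chr5:30073669-30073698 (Tyms, minus), chr1:93802065-93802094 (Dtymk, minus), chr11:93968273-93968302 and chr11:93968037-93968066 (Nme1, minus), and chr19:46969745-46969774 (Nt5c2, minus). The 7 genes with the letters had log2 fold changes from -0.15 to -0.02 with a median of -0.06, and their smallest edgeR adjusted p was 0.104. The 27 genes without them had a median of -0.02 and held the 3 that passed. Of all genes tested 12% passed, so with 7 and 27 genes the split of calls is too small to compare. Myc itself had 583, 577 and 551 CPM in itaconate libraries and 555, 585 and 525 CPM in control libraries, which overlap (0.04 ± 0.050, edgeR adjusted p 0.674). GAAA, any 2 bases and GAAA again, letters of the interferon response element, searched on both strands, stood in Cmpk1 alone (2.94% of the 34 genes, against 3.99% of all genes). TGACNNNGC, letters of the antioxidant response element bound by NRF2, also searched on both strands, stood in 7 of 34 genes (20.6%, against 14% of all genes), namely Cad, Ctps2, Rrm2, Nme1, Dck, Uck2 and Nt5c2. A match is a description of letters and not of a site in use.

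By position, looked up by gene identifier in GENCODE M21 on GRCm38, Gmps (ENSMUSG00000027823) lies on chromosome 3 at 63976106 to 64022579. Samhd1 (ENSMUSG00000027639) lies on chromosome 2 at 157097533 to 157135265, and Uckl1 (ENSMUSG00000089917) on the same chromosome at 181569149 to 181584892; all 3 are protein-coding. Ppat and Paics stand head to head on chromosome 5 and share 272 exon bases on opposite strands. Paics over Ppat in TPM was 3.22, 3.29 and 3.27 in itaconate and 3.10, 3.05 and 3.25 in control libraries, so this neighbouring pair kept nearly the same ratio.

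The neighbouring lists are given as counts, to be read beside the 6.68% of all genes that rose and the 5.36% that fell; with 7 to 18 genes tested in each, 1 call is already a share of that order or above it. Of 16 genes of folate one-carbon metabolism, which supplies carbons for purines and thymidylate, 2 rose and 14 did not pass, with a median of 0.0004. Shmt2, the mitochondrial serine hydroxymethyltransferase, had 986, 986 and 987 CPM in itaconate libraries and 797, 847 and 853 CPM in control libraries (0.25 ± 0.045, edgeR adjusted p 0.00295). Mthfd2, the next mitochondrial enzyme, had 367, 401 and 381 CPM in itaconate libraries and 286, 331 and 327 CPM in control libraries (0.28 ± 0.058, edgeR adjusted p 0.0068). The groups did not overlap for either gene.

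Of 12 genes that supply, use or carry glutamine, aspartate, serine and glycine, 3 rose and 9 did not pass, with a median of 0.10. Asns is among the users, since its enzyme consumes aspartate and glutamine. Asns and Phgdh, which make asparagine and serine, had the smallest p among the risers, at 0.73 ± 0.075 and 0.29 ± 0.048 (edgeR adjusted p 0.000174 and 0.00158), followed by Psat1. Of 11 pentose phosphate genes, which make the ribose of PRPP, Pgls rose (0.30 ± 0.052, edgeR adjusted p 0.00225) and 10 did not pass, with a median of 0.12.

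**Figure D5:**
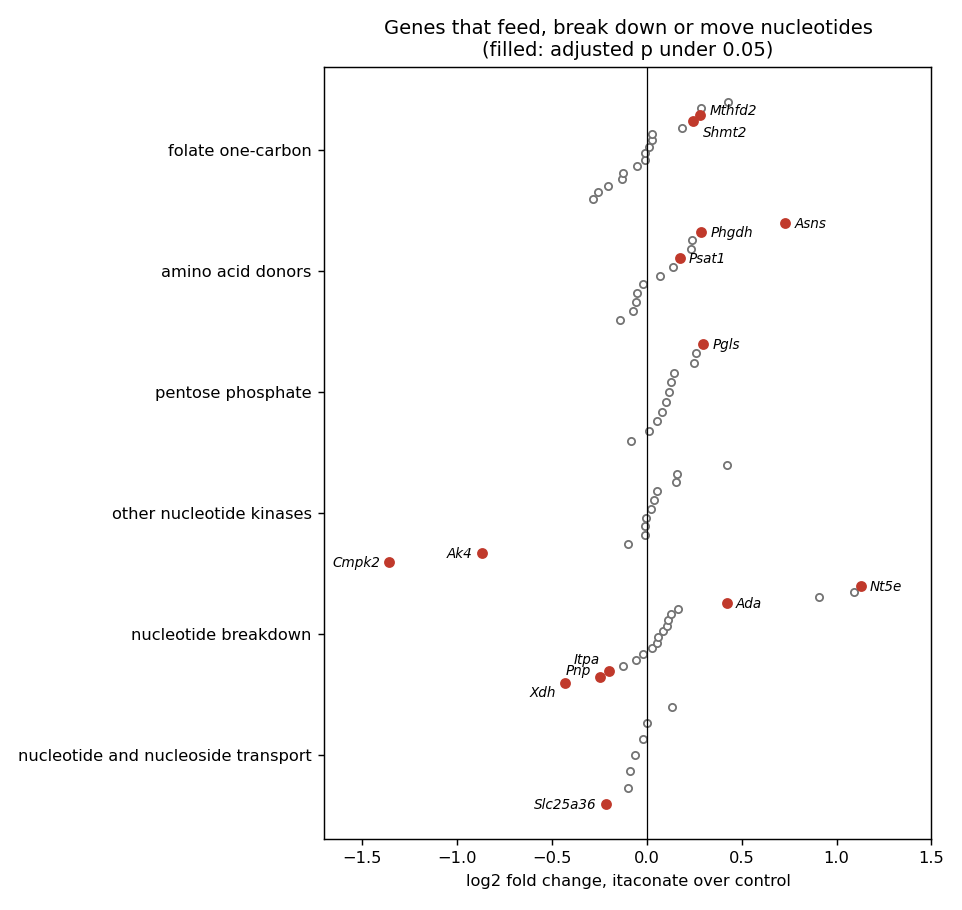
Log2 fold change of itaconate over control for tested genes of the lists around nucleotide supply, breakdown and transport (points, 1 row of points per list). Points are filled and named where the edgeR adjusted p was under 0.05. The amino acid list also holds Asns, which uses aspartate and glutamine. Of the filled points, Nt5e and Asns lie farthest right and Cmpk2 and Ak4 farthest left.

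Outside the 37, some nucleotide kinases and breakdown genes changed by more than any of the 37. Of 12 tested of 14 other nucleotide kinases, 2 fell and 10 did not pass, with a median of 0.01. Cmpk2, a mitochondrial UMP-CMP kinase known as an interferon-induced gene, had 2.47, 2.33 and 3.35 CPM in itaconate libraries and 7.24, 7.59 and 6.32 CPM in control libraries (-1.36 ± 0.18, edgeR adjusted p 0.000308). Ak4, a mitochondrial adenylate kinase, had 28.4, 32.3 and 32.8 CPM in itaconate libraries and 56.6, 56.2 and 58.1 CPM in control libraries (-0.87 ± 0.068, edgeR adjusted p 4.3e-06). Neither gene overlapped between the groups.

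Of 18 tested of 28 breakdown genes, 2 rose, 3 fell and 13 did not pass, with a median of 0.07. Nt5e, the ectonucleotidase that makes adenosine outside the cell, and Ada, which deaminates adenosine, rose. Nt5e had 15.5, 16.4 and 17.9 CPM in itaconate libraries and 6.79, 8.26 and 7.78 CPM in control libraries (1.13 ± 0.11, edgeR adjusted p 3.33e-05). Ada had 27.1, 24.9 and 25.3 CPM in itaconate libraries and 19.5, 17.3 and 20.7 CPM in control libraries (0.42 ± 0.088, edgeR adjusted p 0.0068). Xdh, which oxidises hypoxanthine and xanthine, Itpa, which clears ITP, and Pnp, which splits purine nucleosides, fell: Xdh was at -0.43 ± 0.12, Itpa at -0.20 ± 0.060 and Pnp at -0.25 ± 0.074 (edgeR adjusted p 0.0341, 0.0422 and 0.0439). Pnp had 53.7, 67.2 and 65.0 CPM in itaconate libraries and 72.4, 74.9 and 73.6 CPM in control libraries, and itaconate replicate 1 was the lowest by some distance.

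Of 7 tested of 10 nucleoside and nucleotide transporters, Slc25a36, a mitochondrial pyrimidine nucleotide carrier, fell (-0.22 ± 0.066, edgeR adjusted p 0.0479) and 6 did not pass. Slc29a1, the main nucleoside transporter, had a mean of 169 CPM in both groups. Of 18 regulators, 2 rose, 3 fell and 13 did not pass, with a median of 0.01. Mxd3, a MAX partner that opposes MYC, and E2f2, an activator of S phase genes, rose (0.42 ± 0.11 and 0.22 ± 0.054, edgeR adjusted p 0.0183 and 0.018). Trp53, which encodes p53, and Mxd4 and Mnt, further MAX partners that oppose MYC, fell (-0.22 ± 0.055, -0.62 ± 0.16 and -0.24 ± 0.067, edgeR adjusted p 0.0185, 0.0229 and 0.0336).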

How the data were processed

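RNA was measured in 6 libraries, each with 1 deposited gene table in RSEM's layout. Its expected counts (estimated counts, per the file headers) carry no normalisation, while its deposited TPM, per the file headers, are abundances scaled by effective length. Transcript lengths are the deposited length columns. Bowtie 0.12.2 and the builds mm8 and mm10 are listed, per the submitters' processing notes; the RSEM version, annotation and strand setting: not given in the sources used here. Gene positions are from GENCODE M21 (GRCm38).

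Expected counts were rounded to whole numbers and tested in all 6 libraries with edgeR 4.0.16 (R 4.3.3; quasi-likelihood, robust, TMM, filterByExpr at count 10 and total 15, two-sided), with Benjamini-Hochberg adjustment over 12350 genes and a threshold of 0.05. Intervals of 95% use the test's standard error and degrees of freedom, and are not adjusted. The step was checked on simulated counts, with 50 genes planted at each fold at random among all genes tested. Every simulated gene was given the same dispersion (spread beyond sampling), unlike real genes. The planted genes were not matched to the 37 in level, so the recovery does not describe the 37. It recovered 36% of 1.25-fold, 74% of 1.5-fold, 94% of 2-fold and 96% of 4-fold changes. Of its 156 calls, 6 fell on unchanged genes. Depth was 18280217 to 31643408 per library. Alternatives were DESeq2 1.42.0, its size factors in edgeR, no filter, effective length as an offset, limma 3.58.1 on log2(TPM + 1) or log2(TPM + 0.1) with at least 1 TPM in 3 libraries or no filter, a replicate block, and each library left out. Full values are given for each gene that passed and, in roles with no such gene, for the one with the smallest adjusted p and the one with the highest TPM; up to 2 risers and 2 fallers per neighbouring list were named by rule, and others after their values were seen. The 37 genes and the lists were chosen with earlier results of these data known. Of the neighbouring lists, 2 genes are not reported here and are left out of their lists' counts and medians.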

Additional observations from a re-analysis of the deposited data

How the results depend on the processing

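Of 14 alternative analyses, the 4 that used transcript length left none of the 37 genes called. Limma was run on log2(TPM + 1), log2(TPM + 0.1) and log2(TPM + 1) without a filter. It called 319, 305 and 59 of all genes, against 1487, and of the 37 genes 0 higher and 0 lower. At an unadjusted p under 0.05 by limma, 14, 14 and 13 of the 37 were lower, and 0 higher in each. Of all genes, 13.8%, 13.8% and 8.03% were lower and 6.78%, 6.77% and 3.98% higher at that threshold. The median log2 fold change of the 37 was -0.10 in each of the 3 limma runs, against -0.04. With effective length as an offset 567 genes were called, and of the 37 again 0 higher and 0 lower by edgeR. At an unadjusted p under 0.05 by edgeR, 6 of the 37 were lower and 0 higher. Of all genes, 9.84% were lower and 11% higher at that threshold. The cause of the lost calls was not tested. DESeq2, its size factors in edgeR and no filter kept the 1 higher and 2 lower calls.

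Without 1 library, 726 to 1400 genes were called, of the 37 between 0 and 1 higher and between 1 and 2 lower, and the median of the 37 ran from -0.055 to -0.024. Of all genes, 896 were called without itaconate replicate 2, 835 without itaconate replicate 3 and 726 without control replicate 2. With the replicate number as a block 2419 genes were called, and 4 of the 37 were lower, Tyms (adjusted p 0.0458) and Dck (0.0465) besides Gmps and Samhd1. Whether same-numbered libraries belong together is not known. In their deviations from the group means they correlated by 0.113, 0.0305 and 0.0034, and differently numbered ones by -0.093 to 0.0664. These values cannot decide it. With 3 libraries a group, a difference that did not pass is limited only by its interval.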
